A study of Mus musculus with 36 samples.

Results

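Colons of mice given an unmodified small interfering RNA (siRNA) against Tnf, here called siTNF, were set against colons of mice labelled Control. The members are the 6 arrays whose title names the unmodified TNF siRNA and the 9 arrays titled Control, 15 of the 36 arrays of the series, with every probe set tested. The series profiled distal colon RNA on Affymetrix arrays, with 1 array per animal. The siTNF mice were treated with 5% dextran sulfate sodium (DSS), a polymer that injures the colon epithelium, and received the siRNA into the rectum. The labels give 5% DSS for the Control mice too. The design text names no Control group, and whether those mice received anything into the rectum could not be settled. The other arrays came from DSS-treated mice given a TNF siRNA carrying O-methyl changes (siTNF-OMe, 6 arrays), one carrying O-methyl-propanediol changes (siTNF-OMe-P, 8 arrays) or a scrambled siRNA (7 arrays). Strain, age, siRNA dose, siRNA sequence and times are not stated in the labels used. The labels call the tissue colon and the series title calls it distal colon.

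Tnf encodes tumour necrosis factor, a cytokine made largely by macrophages and T cells, which binds the receptors encoded by Tnfrsf1a and Tnfrsf1b and switches on NF-kB target genes for chemokines, adhesion molecules and acute-phase proteins. An siRNA is a short RNA duplex that Argonaute proteins use to find and cut a matching messenger RNA. Double-stranded RNA can also be sensed by innate receptors, which start an interferon response. DSS colitis is known for loss of crypts, entry of neutrophils and monocytes, and shortening of the colon.

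The tissue label was read against epithelial genes. Epcam, an adhesion gene of epithelial cells, ran over 12.13 to 12.41 in siTNF and 12.04 to 12.40 in Control, and Car1, a carbonic anhydrase of colonocytes, over 13.27 to 13.54 in siTNF and 12.84 to 13.38 in Control. These log2 signals lie near the top of the arrays' scale, which ran from 4.95 to 14.1. Epcam did not pass the test between the groups (0.04 ± 0.05 log2, SE, n = 6 and 9, limma adjusted p = 0.645). In bulk tissue, fewer cells of a type and less RNA per cell cannot be told apart.

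Some arrays stood apart from the rest. Array SD, the standard deviation of all values on 1 array, was under 1.7 for 8 of the 36 arrays, among them siTNF replicate 3 and Control replicates 4, 5, 6 and 8. These narrow arrays were therefore 1 of 6 in siTNF and 4 of 9 in Control, and counts of list members that passed are given with and without them. Differences of single genes also changed in size without them, some smaller and some larger, including where the call held. Array SD moved with the first principal component of all arrays (r = -0.969), which held 48.8% of the variance. siTNF replicate 3 also had the highest myeloperoxidase activity of its group and the highest mean of the neutrophil and squamous keratin lists. Some counts and calls that change without it are therefore given without it too. Among counts not repeated below, 6 and not 9 matrix and remodelling genes rose without it, and 9 and not 7 B and plasma cell genes fell. The median SE of the difference was 0.113 log2, and the number of arrays limits the precision.

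The siTNF colons were shorter than the Control colons and carried more myeloperoxidase (MPO) activity, an enzyme activity of neutrophil granules. Length, in the labels' units, was 5.2, 5.9 and 6.4 (lowest, median and highest) in siTNF, against 7.2, 7.7 and 8.1 in Control. The groups did not overlap. Mean length was 5.83 ± 0.501 in siTNF and 7.68 ± 0.273 in Control (SD, n = 6 and 9), a shift of -1.84 in siTNF (95% interval -2.28 to -1.40, exact permutation adjusted p = 4.00e-04). The labels give length in mm, but the labelled ratio of weight to length fits cm. MPO activity was 0.057, 0.206 and 0.703 U per mg in siTNF, against 0.009, 0.038 and 0.088 U per mg in Control. In 5 of 6 siTNF animals it lay above all Control animals, and siTNF replicate 6, at 0.057, lay among them. The difference of means was 0.264 U per mg (95% interval 0.116 to 0.432, exact permutation adjusted p = 7.99e-04, n = 6 and 9).

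Colon weight did not separate the groups, at 166 ± 16.2 mg in siTNF and 167 ± 13.7 mg in Control (SD, n = 6 and 9), -0.944 mg apart (95% interval -17.4 to 15.5, exact permutation adjusted p = 0.915). The weight to length ratio, a measure of wall thickening, was higher with no overlap, at 2.85 ± 0.164 mg per mm in siTNF and 2.18 ± 0.130 mg per mm in Control, 0.676 above Control (95% interval 0.512 to 0.840, exact permutation adjusted p = 4.00e-04, n = 6 and 9). Mean weight hardly differed, so this 1.31-fold higher ratio largely restates the 1.32-fold shorter length and is no separate evidence. All tests were two-sided over 5005 assignments of the animals, the p-values were adjusted over the 4 measures, and the smallest unadjusted p that these group sizes allow is 2.00e-04, which length and ratio reached.

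**Figure D1:**
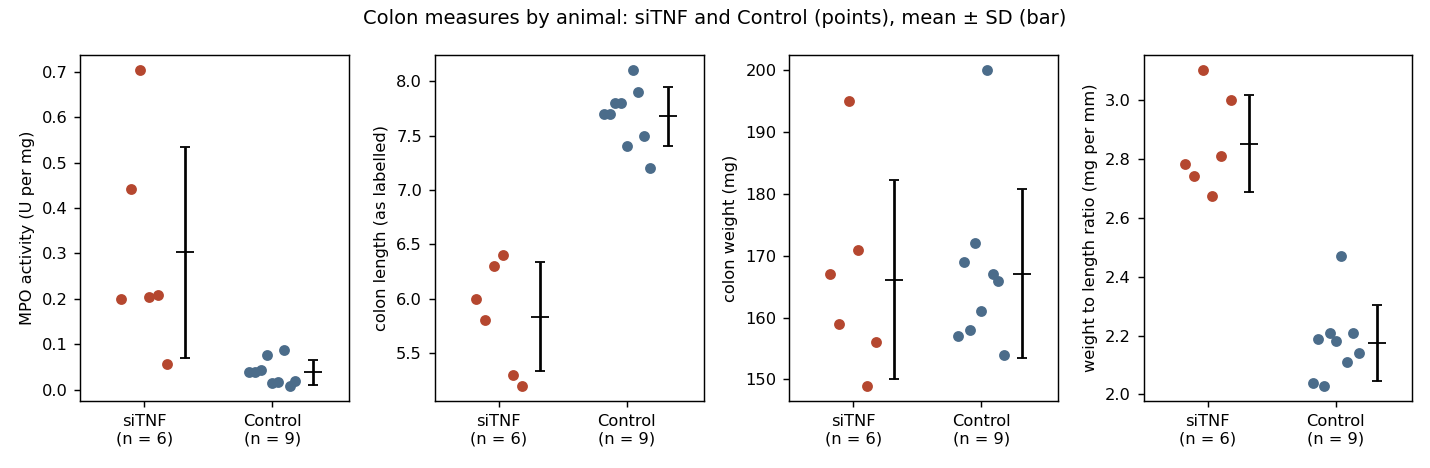
Colon measures by animal, with siTNF (n = 6) left of Control (n = 9): myeloperoxidase activity in U per mg, colon length as labelled, colon weight in mg and weight to length ratio in mg per mm. Points are animals, and the bar is the mean with its SD. Length and ratio do not overlap between the groups, weight does, and 1 siTNF animal has an MPO activity of 0.057, within the Control range.

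Tnf messenger RNA was higher in the siTNF colons than in Control. Its log2 signal was 8.72, 9.17 and 9.42 (lowest, median and highest log2 signal) in siTNF, against 7.60, 7.91 and 8.67 in Control. The lowest siTNF animal lay just above the highest Control animal, Control replicate 4. The difference was 1.15 ± 0.15 log2 (SE, n = 6 and 9), 2.22-fold, with a limma adjusted p of 2.12e-06, and without siTNF replicate 3 it was 1.11 (adjusted p = 1.76e-05). Tnf lies on chromosome 17 from 35199367 to 35202007 of the mouse assembly GRCm38.p6. No genome build is stated for the array's probes.

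Differences below are log2 siTNF over Control ± SE (n = 6 and 9 arrays), and a gene is said to rise or fall where its limma adjusted p was under 0.05. Over 28853 probe sets, 3982 passed (13.8%), of which 2624 were higher (9.09%) and 1358 lower (4.71%) in siTNF. Counted once per gene, 3146 of 19938 genes passed (15.8%), 2271 higher (11.4%) and 875 lower (4.39%). Without the narrow arrays 2070 genes were higher (10.4%) and 2607 lower (13.1%), so the split between directions depends on those arrays. Counts of list members below are to be read beside these shares, with and without the narrow arrays. The median difference over all genes was -0.02 log2, and 0.037 without the narrow arrays. With only the siTNF and Control arrays in the fit 1321 probe sets passed, and 788 and 1584 within hybridization batches 1 and 2. Many counts of list members were lower in those fits too, but not all. For example, 11 acute-phase genes rose with only the siTNF and Control arrays, against 10 with all arrays. Of the genes that passed, 247 were higher and 71 lower by at least 1 log2.

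Clca4b, which belongs to a family of regulators of calcium-activated chloride channels, had the highest difference of all genes. Its signal was 11.78, 12.66 and 12.89 (lowest, median and highest log2 signal) in siTNF, against 6.96, 7.75 and 8.94 in Control. It rose 26.3-fold (4.72 ± 0.23, limma adjusted p = 1.12e-15), and every siTNF animal lay well above every Control animal. Clca4b lies on chromosome 3 from 144910921 to 144932529. Clca4a, a close relative whose transcripts may share probes with it, rose by 1.53 ± 0.22.

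Ccl8, a chemokine that draws monocytes, was next. Its signal was 9.92, 10.21 and 10.60 in siTNF, against 6.45, 6.68 and 6.92 in Control, so the groups were far apart and each was tight. The rise was 11.7-fold (3.55 ± 0.19, limma adjusted p = 1.43e-14). Saa3, an acute-phase apolipoprotein gene, rose by 3.17 ± 0.48, with a wide spread in siTNF (9.38 to 12.59). Lcn2, which encodes a protein that binds bacterial iron carriers, had 10.25, 10.47 and 13.08 in siTNF, against 7.65, 7.93 and 8.14 in Control. The highest value belonged to siTNF replicate 3, and the other 5 siTNF animals still lay above all Control animals. The Lcn2 rise was 3.07 ± 0.33, and 2.72 without that animal (limma adjusted p = 2.47e-07).

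Tac1, which encodes substance P and is active in enteric neurons and some endocrine cells, rose by 2.98 ± 0.29, with 11.13, 12.17 and 12.49 in siTNF, against 7.21, 9.19 and 10.15 in Control. The Control animals were more spread than the siTNF animals, with no overlap. Wfdc17, a small secreted protein gene of activated macrophages, rose by 2.76 ± 0.14, and Lrg1, a plasma glycoprotein gene, by 2.69 ± 0.26. Retnlb, which encodes a goblet cell protein that acts on gut bacteria and parasites, rose by 2.67 ± 0.39, Serpina3n, a protease inhibitor gene, by 2.67 ± 0.19, and Hp, which encodes the haemoglobin scavenger haptoglobin, by 2.61 ± 0.39. In all 10 of these genes the siTNF and Control animals did not overlap, which held for 3.83% of all genes. The genes were picked by the difference between the same animals, so the missing overlap is no separate evidence.

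Reg4, a lectin gene of secretory cells of the colon, had the lowest difference. Its signal was 9.08, 9.82 and 10.17 (lowest, median and highest log2 signal) in siTNF, against 12.27, 12.89 and 13.09 in Control. It fell by 3.10 ± 0.14 log2, 8.59-fold lower (limma adjusted p = 1.39e-16). Reg4 lies on chromosome 3 from 98222138 to 98236748. Cldn2, a claudin that forms pores for cations and water in tight junctions, had 6.96, 7.67 and 7.87 in siTNF, against 9.29, 10.01 and 10.43 in Control, and fell by 2.40 ± 0.14 with no overlap. Cftr, the chloride channel of crypt cells, had 6.91, 7.25 and 7.52 in siTNF, against 8.11, 9.48 and 10.15 in Control. It fell by 2.05 ± 0.22, and the 4 narrow Control arrays held the 4 lowest of its 9 Control values.

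Nox1, the superoxide-producing oxidase of colon epithelium, fell by 1.90 ± 0.17, and Aadac, an esterase gene, by 1.78 ± 0.23. Acer1, an alkaline ceramidase gene, fell by 1.94 ± 0.20, and Myb, which encodes a transcription factor of crypt progenitors and blood precursors, by 1.56 ± 0.17. Nxpe2 fell by 2.85 ± 0.17, Smpx by 2.37 ± 0.22 and Klk15, a kallikrein protease gene, by 1.55 ± 0.14. In these 10 lowest genes, picked in the same way, the groups did not overlap either. All 20 genes named as highest or lowest, and Tnf, also passed without the narrow arrays.

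**Figure D2:**
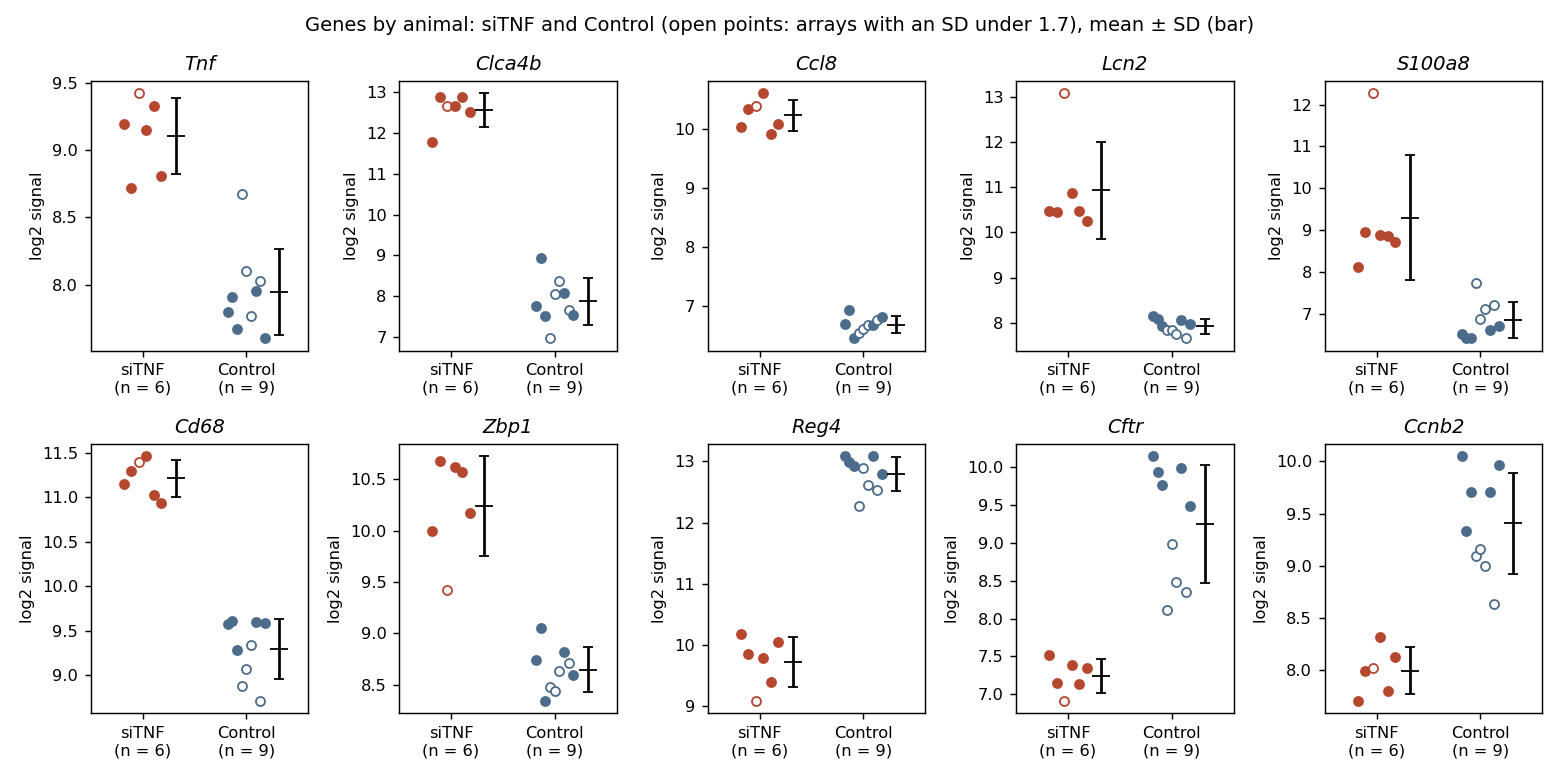
Log2 signal of 10 genes in each animal, siTNF (n = 6) left of Control (n = 9). Open points are the narrow arrays, and the bar is the mean with its SD. In all 10 genes the groups do not overlap, which held for 3.83% of all genes. All but Tnf were named for their difference between the same animals, so this is no separate evidence. 1 open siTNF point, replicate 3, lies far above the other 5 in Lcn2 and S100a8, and the open Control points lie low in Cftr and Ccnb2.

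The TNF pathway was read by role. In the list of TNF ligands, receptors and proximal signalling genes 6 of 19 measured members rose and 0 fell, against 11.4% and 4.39% of all genes, with a median of 0.29. Without the narrow arrays 5 rose and 0 fell (median 0.04), so the median lay at that of all genes, and 10 rose without Control replicate 7. Both receptors rose, Tnfrsf1a by 1.24 ± 0.19 and Tnfrsf1b by 1.24 ± 0.14, with no overlap between the groups. Without the narrow arrays the differences were 0.74 for Tnfrsf1a and 1.25 for Tnfrsf1b, so their equal size depends on those arrays. The death receptor gene Fas rose by 0.88 ± 0.14, Casp8, the caspase that TNF receptors can engage, by 0.64 ± 0.17, and Birc3, an inhibitor of apoptosis that NF-kB induces, by 0.53 ± 0.13. The Birc3 call was lost without the narrow arrays (0.21, limma adjusted p = 0.136). The Casp8 call was lost without siTNF replicate 5. The ligand genes Lta and Ltb had differences of -0.07 ± 0.12 and -0.12 ± 0.12, which did not pass. Adam17, the protease that sheds TNF from the cell surface, had 0.42 ± 0.15 and did not pass either.

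In the list of TNF and NF-kB target genes 20 of 27 measured members rose and 0 fell, with a median of 0.78. Without the narrow arrays 16 rose and 1 fell (median 0.42), and without siTNF replicate 3 19 rose and 0 fell. Besides Lcn2, Socs3, a feedback inhibitor of cytokine signalling, rose by 1.99 ± 0.27, and Ier3, an early response gene, by 1.76 ± 0.26. The feedback inhibitors of NF-kB rose as well, Nfkbia by 0.98 ± 0.19, Tnfaip3, which encodes A20, by 0.55 ± 0.12 and Nfkbie by 0.46 ± 0.12. The Tnfaip3 call was lost without the narrow arrays (0.28, limma adjusted p = 0.0633). The Nfkbie call was lost without the narrow arrays (0.31, limma adjusted p = 0.125) and without siTNF replicate 3 (0.34, limma adjusted p = 0.0512). Among adhesion molecules of activated endothelium, Vcam1 rose by 1.63 ± 0.16 and Icam1 by 0.79 ± 0.17, while Sele had -0.00 ± 0.19 and did not pass. Relb, an NF-kB subunit, had 0.13 ± 0.10, while the subunit gene Rel rose by 1.17 ± 0.22. The mean of the 27 genes over the Control mean ran from 0.61 to 1.53 in siTNF animals and from -0.37 to 0.29 in Control animals.

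Among chemokines 15 of 30 measured members rose and 1 fell, with a median of 0.53, and without the narrow arrays 16 rose and 1 fell (median 0.66). After Ccl8, Cxcl13, which draws B cells, rose by 1.55 ± 0.20 with no overlap. Of the interferon-induced T cell chemokines, Cxcl10 rose by 1.24 ± 0.38, while Cxcl9 had 0.51 ± 0.29 and did not pass. The Cxcl10 call was lost in 4 of 15 fits that left out 1 array. The neutrophil attractant Cxcl2 rose by 1.62 ± 0.43, with 6.84, 7.28 and 11.61 in siTNF, against 5.95, 6.43 and 7.10 in Control. Its groups overlapped, and siTNF replicate 3 held the highest value by a wide margin. The Cxcl2 call was lost without the narrow arrays (1.03, limma adjusted p = 0.0594) and without siTNF replicate 3 (0.96, limma adjusted p = 0.0542). Ccl25, which guides lymphocytes to the small intestine, fell by 0.33 ± 0.07.

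Cytokine genes that passed were all higher. In that list 5 of 27 measured members rose and 0 fell, or 18.5% higher beside 11.4% of all genes, with a median of -0.01, and without the narrow arrays 6 rose and 0 fell (median 0.13). Il1b rose by 1.44 ± 0.37, the interleukin 1 receptor antagonist Il1rn by 0.33 ± 0.10, Lif, a cytokine of the interleukin 6 family, by 0.56 ± 0.16, Tgfb1 by 0.64 ± 0.10 and Tgfb3 by 0.60 ± 0.14. The Il1b groups overlapped, and siTNF replicate 3 held the highest value, 11.46. Without that animal the Il1b difference was 1.08 (limma adjusted p = 0.0454). The Il1b call was lost with only the siTNF and Control arrays in the fit (1.43, limma adjusted p = 0.0536). The Il1rn call was lost without the narrow arrays (0.20, limma adjusted p = 0.0546) and in 6 of 15 fits that left out 1 array. The Lif call was lost without siTNF replicate 3 (0.43, limma adjusted p = 0.0717). Il6 had 5.42, 5.73 and 10.06 in siTNF, against 5.45, 5.55 and 5.84 in Control: 1 siTNF animal was far above the rest, and the difference of 0.86 ± 0.43 did not pass. The T cell cytokines Ifng (-0.12 ± 0.11) and Il17a (-0.04 ± 0.09) did not pass, with signals of 6.75 to 7.19 in siTNF and 6.73 to 7.65 in Control for Ifng.

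Acute-phase genes, which encode plasma proteins that the liver and inflamed epithelium release, rose in number. Of these 10 of 17 measured members rose and 0 fell, with a median of 1.00, and without the narrow arrays 10 rose and 0 fell (median 0.87). Lbp, which hands bacterial lipopolysaccharide to its receptor, rose by 2.41 ± 0.21, Steap4, a metal reductase gene, by 1.61 ± 0.21, and Cp, which encodes the copper carrier ceruloplasmin, by 1.00 ± 0.16. Of the serum amyloid genes, Saa2 rose by 0.62 ± 0.11, while Saa1 (0.21 ± 0.07) and Saa4 (-0.15 ± 0.17) did not pass. These paralogs are alike enough that probes may share signal.

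Macrophage genes rose together. In the monocyte and macrophage list 19 of 24 measured members rose and 0 fell. With all arrays its median, 1.24, was the highest of the 41 lists. Without the narrow arrays 20 rose and 0 fell (median 0.89), and the interferon-inducible GTPases had a higher median (0.95). Cd68, a lysosomal protein of macrophages, had 10.94, 11.22 and 11.47 (lowest, median and highest log2 signal) in siTNF, against 8.71, 9.35 and 9.61 in Control, with no overlap, and rose 3.76-fold (1.91 ± 0.13, limma adjusted p = 1.31e-12). Ms4a6d, a membrane protein gene of myeloid cells, rose by 2.31 ± 0.18, and Fcer1g, the signalling chain of Fc receptors, by 1.81 ± 0.17. Cx3cr1, a receptor of resident macrophages, had -0.26 ± 0.11, and Ccr2, which marks newly arrived monocytes, 0.48 ± 0.17, and neither passed. The list mean over the Control mean ran from 0.83 to 1.42 in siTNF and from -0.40 to 0.19 in Control, so each siTNF animal lay above all Control animals.

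In the list of lipid-handling macrophage and lysosome genes 16 of 19 measured members rose and 0 fell, with a median of 0.64, and without the narrow arrays 12 rose and 0 fell (median 0.36). Gpnmb, a glycoprotein of lipid-laden macrophages, rose by 2.39 ± 0.16, Fabp5, a fatty acid carrier, by 1.72 ± 0.16, and the scavenger receptor Cd36 by 1.09 ± 0.28. The Cd36 call was lost without the narrow arrays (0.50, limma adjusted p = 0.204). Of the cathepsins, Ctsk rose by 1.03 ± 0.16, Ctsd by 0.92 ± 0.15 and Ctss by 0.36 ± 0.06. Complement genes followed: 14 of 15 measured members rose and 0 fell, with a median of 0.87, and without the narrow arrays 13 rose and 0 fell (median 0.69). The C1q chains, which macrophages make, rose by 1.43 ± 0.20 (C1qa), 1.36 ± 0.15 (C1qb) and 1.31 ± 0.16 (C1qc). The complement inhibitor Cd55 rose by 1.58 ± 0.29 (0.95 without the narrow arrays) and the factor I gene Cfi, at -0.05 ± 0.12, did not pass.

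The values of neutrophil genes leaned on 1 animal. Of these 7 of 20 measured members rose and 0 fell, with a median of 0.54, and without the narrow arrays 6 rose and 0 fell (median 0.37). Without siTNF replicate 3 6 rose and 0 fell, with a median of 0.14. The list mean was 2.32 in that animal, 0.28 to 0.49 in the other siTNF animals and -0.34 to 0.39 in Control. S100a8, a calprotectin chain that fills neutrophil cytosol, had 8.10, 8.87 and 12.27 in siTNF, against 6.42, 6.70 and 7.73 in Control. It rose by 2.55 ± 0.48 and its partner S100a9 by 2.12 ± 0.41, and without siTNF replicate 3 the differences were 2.07 (limma adjusted p = 0.00176) and 1.68 (limma adjusted p = 0.00284). The granule genes made in marrow precursors did not pass, with -0.06 ± 0.12 for Mpo and -0.01 ± 0.08 for Elane.

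Among the other blood cell lists, B cell genes were lower. Of the T cell and NK cell genes 2 of 20 measured members rose and 0 fell, or 10.0% higher beside 11.4% of all genes, and without the narrow arrays 4 rose and 0 fell (median 0.15). Cd4, which some gut macrophages carry as well as T cells, rose by 0.90 ± 0.11, while Cd3e (-0.13 ± 0.12) and Cd8a (-0.04 ± 0.10) did not pass. Of the genes of B and plasma cells 2 of 18 measured members rose and 7 fell, with a median of -0.32, and without the narrow arrays 1 rose and 6 fell (median -0.20). The B cell surface genes Ms4a1 and Cd79a fell by 0.52 ± 0.13 and 0.50 ± 0.13, and Cr2, the complement receptor of follicular B cells, by 0.52 ± 0.12. The 2 that rose were Xbp1 (0.62 ± 0.13) and Prdm1 (0.57 ± 0.14), transcription factor genes of plasma cells that epithelium also expresses. The Prdm1 call was lost without the narrow arrays (0.44, limma adjusted p = 0.0615). Of the genes of mast cells and eosinophils 0 of 14 measured members rose and 1 fell, or 7.14% lower beside 4.39% of all genes. The 1 that fell was the mast cell chymase Cma1, by 0.34 ± 0.09. Without the narrow arrays 2 rose and 1 fell (median 0.08), when 10.4% of all genes rose and 13.1% fell. The Cma1 call was lost without the narrow arrays (-0.19, limma adjusted p = 0.153) and without siTNF replicate 4 or siTNF replicate 5. Neither of the 2 red blood cell genes passed, and 1 rose without the narrow arrays.

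Interferon-stimulated genes were higher in the siTNF colons. In the type I interferon list 18 of 25 measured members rose and 0 fell, with a median of 0.69, and without the narrow arrays 20 rose and 0 fell (median 0.66). Zbp1, a sensor of left-handed double helices that can start cell death, had 9.42, 10.37 and 10.67 (lowest, median and highest log2 signal) in siTNF, against 8.34, 8.64 and 9.06 in Control, with no overlap. It rose 2.97-fold (1.57 ± 0.20, limma adjusted p = 9.78e-07). Ifit2 rose by 1.39 ± 0.30 and Ifit1, which binds foreign capped RNA, by 1.31 ± 0.28. Irf7, the transcription factor that amplifies interferon output, rose by 1.19 ± 0.21. Ifnb1, the interferon beta gene, had 6.14 to 6.64 in siTNF and 6.14 to 6.92 in Control, and its difference of -0.11 ± 0.10 did not pass.

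The interferon genes were also read within batches and by animal. Within hybridization batch 1, 2 rose and 0 fell with a median of 0.50. Within hybridization batch 2, 18 rose and 0 fell with a median of 0.93, with 3 siTNF animals in each batch. Over all 28853 probe sets 333 were higher in batch 1 and 1207 in batch 2, and the difference between the batches was not tested. The list mean was 1.28 in siTNF replicate 4 and 0.47 to 0.87 in the other siTNF animals, against -0.13 to 0.13 in Control, so all 6 lay above all 9 Control animals.

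Many promoters of interferon-stimulated genes are known to carry an interferon-stimulated response element. The letters GAAANNGAAA, the core of that element, were searched on both strands (TTTCNNTTTC on the given strand stands for a match on the opposite strand) in the 250 bases before each gene's start, from RefSeq promoters of GRCm38.p6. Of 19 list members with a promoter, 7 held a match (36.8%), against 936 of 27025 genes with a promoter (3.46%). The match was present in 6 of 15 members that passed and in 1 of 4 that did not. Over all genes, 79 of 1767 that rose held it (4.47%), and 3.28% of those that did not pass. A match is a description of letters, not of a bound site. The matches nearest the start are shown for the 5 members with the highest differences among those that rose and held one, in capitals within their neighbouring bases, each read 5′ to 3′ along the gene's strand.
Ifit1: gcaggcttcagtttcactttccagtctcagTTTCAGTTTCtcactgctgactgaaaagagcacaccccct
Bst2: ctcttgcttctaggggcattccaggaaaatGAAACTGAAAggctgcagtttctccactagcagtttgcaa
Ifit3: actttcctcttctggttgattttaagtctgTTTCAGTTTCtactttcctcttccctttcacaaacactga
Stat2: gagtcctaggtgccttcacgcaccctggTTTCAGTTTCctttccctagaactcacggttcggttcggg
Rsad2: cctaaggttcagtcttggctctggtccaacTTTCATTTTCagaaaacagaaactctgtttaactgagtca
The windows are chr19:34640774-34640843 on the plus strand for Ifit1, chr8:71537557-71537626 on the minus strand for Bst2, chr19:34583377-34583446 on the plus strand for Ifit3, chr10:128270248-128270315 on the plus strand for Stat2 and chr12:26456533-26456602 on the minus strand for Rsad2. Ifit1, Bst2 and Ifit3 hold 2 matches each and Stat2 and Rsad2 hold 1. Bst2, which tethers budding virus, rose by 1.02 ± 0.15, Ifit3, a partner of Ifit1, by 0.83 ± 0.14, Stat2 by 0.73 ± 0.17 and Rsad2, which encodes the antiviral enzyme viperin, by 0.69 ± 0.17.

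The interferon-inducible GTPases, which attack vacuoles of intracellular microbes, also rose. Of these 6 of 8 measured members rose and 0 fell, with a median of 0.96, and without the narrow arrays 6 rose and 0 fell (median 0.95). Within hybridization batches 1 and 2, 0 and 4 of them rose, with medians of 0.77 and 1.14. Iigp1 rose by 1.96 ± 0.39, Gbp5 by 1.39 ± 0.30 and Irgm1 by 1.27 ± 0.39. The Irgm1 call was lost without the narrow arrays (0.99, limma adjusted p = 0.0628) and in 3 of 15 fits that left out 1 array. Members of this family are alike in sequence, so their probe sets may share signal. In the antigen presentation list 14 of 18 measured members rose and 0 fell, with a median of 0.51, and without the narrow arrays 13 rose and 0 fell (median 0.31). Here 1 rose within hybridization batch 1 and 14 within batch 2, with medians of 0.41 and 0.62. Tap1, which carries peptides to class I molecules, rose by 1.21 ± 0.24, the immunoproteasome gene Psmb8 by 1.13 ± 0.18, and the class II invariant chain Cd74 by 0.67 ± 0.17.

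Among sensors of foreign nucleic acid 9 of 16 measured members rose and 0 fell, with a median of 0.39, and without the narrow arrays 7 rose and 0 fell (median 0.32). Myd88, the adaptor below most Toll-like receptors, rose by 0.96 ± 0.18, Sting1, the adaptor of the DNA sensor cGAS, by 0.95 ± 0.24, and Tlr7, which senses RNA in endosomes, by 0.72 ± 0.12. The Sting1 call was lost without the narrow arrays (0.59, limma adjusted p = 0.105), and the Myd88 difference was 0.52 there. Tlr3, a receptor for double-stranded RNA, had 0.44 ± 0.16 and Eif2ak2, the double-stranded RNA kinase, 0.29 ± 0.17, and neither passed. Of the RNA interference machinery 2 of 16 measured members rose and 0 fell, a share of 12.5% beside 11.4% of all genes, with a median of 0.07, and without the narrow arrays 1 rose and 1 fell (median -0.07). The pair that rose were Sidt2, a lysosomal RNA transporter gene (0.39 ± 0.13), and Mov10, a helicase gene (0.37 ± 0.13). The Sidt2 call was lost without the narrow arrays (0.06, limma adjusted p = 0.642), without siTNF replicate 3 (0.34, limma adjusted p = 0.0938) and in 6 of 15 fits that left out 1 array, that one included. The Mov10 call was lost without the narrow arrays (0.37, limma adjusted p = 0.0574) and in 11 of 15 fits that left out 1 array. Ago2, the Argonaute that cuts target RNA, had 10.51, 10.55 and 10.66 in siTNF, against 10.18, 10.37 and 10.76 in Control, and its difference of 0.18 ± 0.07 did not pass (limma adjusted p = 0.115). Dicer1, which makes small RNAs from longer duplexes, had 0.20 ± 0.11.

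Of the bacterial pattern receptors 5 of 14 measured members rose and 0 fell, with a median of 0.29, and without the narrow arrays 6 rose and 0 fell (median 0.27). Clec7a, the beta-glucan receptor of myeloid cells, rose by 1.65 ± 0.14, the lipopolysaccharide co-receptor Cd14 by 1.25 ± 0.27 and Tlr2 by 0.73 ± 0.14. The Cd14 call was lost without the narrow arrays (0.60, limma adjusted p = 0.0596), and the Tlr2 difference was 0.36 there. In the epithelial antimicrobial list 9 of 24 measured members rose and 3 fell, with a median of 0.18, and without the narrow arrays 9 rose and 4 fell (median 0.24). Duoxa2, the maturation factor of an epithelial hydrogen peroxide source, rose by 1.89 ± 0.22, the oxidase Duox2 by 1.30 ± 0.18 and the protease inhibitor Slpi by 1.36 ± 0.11. The 3 that fell were Reg4, Nox1 and S100g, a calcium-binding protein gene of absorptive cells (1.21 ± 0.12). The Reg3 lectin genes did not pass, with 0.57 ± 0.49 for Reg3b and 0.12 ± 0.34 for Reg3g.

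Cell cycle genes fell more widely than any other list. Of these 0 of 24 measured members rose and 21 fell, or 87.5% beside 4.39% of all genes, with a median of -0.79, and without the narrow arrays 0 rose and 22 fell (median -1.03). Ccnb2, a mitotic cyclin gene, had 7.70, 8.01 and 8.32 (lowest, median and highest log2 signal) in siTNF, against 8.63, 9.33 and 10.05 in Control, with no overlap, and fell by 1.42 ± 0.15 (limma adjusted p = 3.87e-08). Top2a, the topoisomerase of dividing cells, fell by 1.51 ± 0.23, Birc5, which encodes survivin, by 1.36 ± 0.20, and Mki67 by 1.27 ± 0.19. Of the DNA synthesis genes, Mcm5 fell by 0.57 ± 0.12 and Mcm2 by 0.34 ± 0.10, while Pcna (0.04 ± 0.15) and Rrm2 (-0.16 ± 0.10) did not pass. The Mcm2 call was lost without siTNF replicate 1 or siTNF replicate 2.

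The list mean moved with the narrow arrays inside Control. It ran from -0.93 to -0.63 in the siTNF animals, from -0.63 to -0.23 in the 4 narrow Control arrays and from 0.12 to 0.52 in the other Control arrays. The part of array spread in this result was not tested.

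Of the genes of crypt stem cells and Wnt signalling 1 of 18 measured members rose and 7 fell, with a median of -0.27, and without the narrow arrays 1 rose and 11 fell (median -0.59). Axin2, a feedback inhibitor that reports Wnt signalling, fell by 1.04 ± 0.11 with no overlap. Rnf43, which removes Wnt receptors from the surface, fell by 0.68 ± 0.13, Ephb3, a receptor that positions crypt cells, by 0.59 ± 0.11, and Lgr5, the stem cell receptor, by 0.57 ± 0.09. Nkd1, also a feedback inhibitor of Wnt, rose by 0.65 ± 0.12. Olfm4 (-0.14 ± 0.21) and Myc (-0.21 ± 0.24) did not pass.

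**Figure D3:**
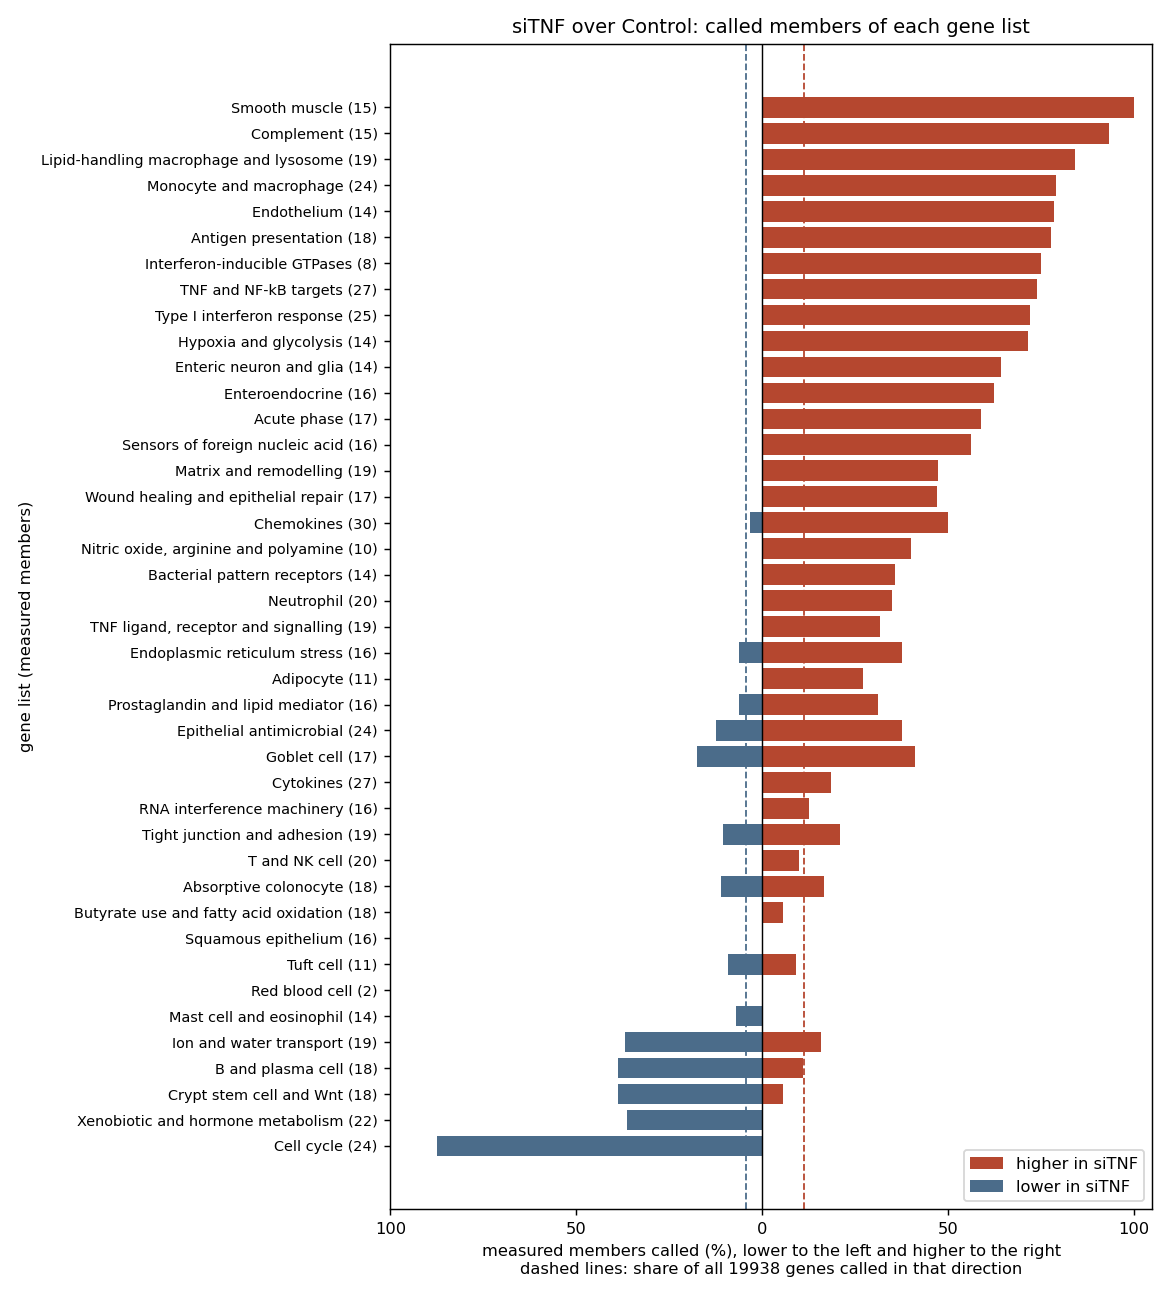
Share of measured members of each gene list that passed the test, in percent, with members lower in siTNF drawn to the left and members higher to the right. Bars are lists, with the number of measured members in brackets, in order of the share higher minus the share lower. Dashed lines mark the shares over all genes, 4.39% lower and 11.4% higher. Smooth muscle and complement genes have the longest bars to the right and cell cycle genes the longest to the left.

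Genes that carry salt and water moved in both directions. In the ion and water transport list 3 of 19 measured members rose and 7 fell, with a median of -0.05, and without the narrow arrays 3 rose and 7 fell (median -0.00). Without siTNF replicate 3 5 rose and 4 fell, 5 rose and 4 fell without Control replicate 7, and 4 fell too without siTNF replicate 2 or 6 or Control replicate 1, 3 or 9. With Cftr, the potassium channel genes Kcnn4, Kcnq1 and Kcne3, which support chloride secretion, fell by 1.38 ± 0.13, 1.14 ± 0.14 and 1.15 ± 0.26. Best2, a bicarbonate channel of goblet cells, fell by 0.88 ± 0.29, and Slc12a2, the cotransporter that loads crypt cells with chloride, by 0.48 ± 0.16. The Best2 call was lost without siTNF replicate 3 (-0.73, limma adjusted p = 0.117) and in 9 of 15 fits that left out 1 array, that one included. The Slc12a2 call was lost without siTNF replicate 3 (-0.46, limma adjusted p = 0.0848) and in 10 of 15 fits that left out 1 array, that one included. The 3 that rose were Clca4b, Clca4a and Kcnma1 (0.45 ± 0.09), a potassium channel gene also found in muscle.

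In the absorptive colonocyte list 3 of 18 measured members rose and 2 fell, or 16.7% and 11.1% beside 11.4% and 4.39% of all genes. Without the narrow arrays 2 rose and 2 fell (median -0.05), when 10.4% of all genes rose and 13.1% fell, so its shares lay near the background there. Krt20, a keratin of surface colonocytes, rose by 0.41 ± 0.11, while Guca2b, which encodes uroguanylin, fell by 0.68 ± 0.18 and the water channel Aqp8 by 0.72 ± 0.23. The Krt20 call was lost without the narrow arrays (0.25, limma adjusted p = 0.143). The Aqp8 call was lost without siTNF replicate 3 (-0.54, limma adjusted p = 0.14) and in 7 of 15 fits that left out 1 array, that one included. Slc26a3, the chloride and bicarbonate exchanger of surface cells, had -0.04 ± 0.21 and did not pass. In the list of butyrate use and fatty acid oxidation 1 of 18 measured members rose and 0 fell, but without the narrow arrays 1 rose and 7 fell (median -0.28), so that result depends on them. In the xenobiotic and hormone metabolism list 0 of 22 measured members rose and 8 fell, with a median of -0.31, and without the narrow arrays 0 rose and 10 fell (median -0.45). Besides Aadac, Dio1, which activates thyroid hormone, fell by 1.54 ± 0.32 and Sult1a1, a sulfotransferase gene, by 1.18 ± 0.17.

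Goblet cell genes moved in both directions: 7 of 17 measured members rose and 3 fell, and without the narrow arrays 7 rose and 3 fell (median 0.15). Without siTNF replicate 3 10 rose and 1 fell, and within hybridization batch 2 8 rose and 0 fell. The secreted mucin Muc2 rose by 0.50 ± 0.09 and the membrane mucins Muc1 and Muc13 by 1.08 ± 0.16 and 0.59 ± 0.08, while the membrane mucin Muc4 fell by 0.37 ± 0.11. Atoh1, the factor that commits progenitors to the secretory fate, fell by 0.99 ± 0.28. The Atoh1 call was lost without siTNF replicate 3 (-0.66, limma adjusted p = 0.0855). The Muc4 call was lost without siTNF replicate 1 or siTNF replicate 2. Of the tight junction list 4 of 19 measured members rose and 2 fell, or 21.1% and 10.5% beside 11.4% and 4.39% of all genes. Without the narrow arrays 2 rose and 2 fell (median 0.03), when 10.4% of all genes rose and 13.1% fell. Its shares thus lay near the background there. Leaving out siTNF replicate 4 or 5 left 2 that rose. Apart from Cldn2, Cldn15 fell by 0.64 ± 0.12, and Cldn8, a sealing claudin of the distal colon, rose by 1.30 ± 0.21 with no overlap. Ocln (-0.13 ± 0.14) and Tjp1 (0.36 ± 0.16) did not pass.

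Enteroendocrine genes were higher. In that list 10 of 16 measured members rose and 0 fell, with a median of 0.48, and without the narrow arrays 9 rose and 0 fell (median 0.39). Gcg, which encodes the precursor of glucagon-like peptides, averaged 11.54 ± 0.424 log2 signal in siTNF and 9.64 ± 0.409 in Control (SD, n = 6 and 9), with a median and a highest value of 11.60 and 12.10 in siTNF, against 9.62 and 10.19 in Control, and no overlap. It rose 3.74-fold (1.90 ± 0.18, limma adjusted p = 4.36e-09). Sst, which encodes somatostatin, rose by 1.13 ± 0.14, Chga, a granule protein gene, by 0.91 ± 0.12 and Pyy, the peptide YY gene, by 0.82 ± 0.11, while Nts (-0.01 ± 0.07) and the fate gene Neurod1 (0.14 ± 0.06) did not pass. The tuft cell list gave 1 higher and 1 lower of 11, or 9.09% each way beside 11.4% and 4.39% of all genes. Hpgds, a prostaglandin synthase gene, rose by 0.37 ± 0.12 and Cd24a fell by 0.34 ± 0.06. Without the narrow arrays 3 rose and 1 fell (median 0.14), when 10.4% of all genes rose and 13.1% fell. The Hpgds call was lost without the narrow arrays (0.30, limma adjusted p = 0.0504) and in 3 of 15 fits that left out 1 array.

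Genes of the muscle wall, nerves and vessels were higher in siTNF as well. In the smooth muscle list 15 of 15 measured members rose and 0 fell, with a median of 0.49, and without the narrow arrays 13 rose and 0 fell (median 0.39). With only the siTNF and Control arrays in the fit 6 of the 15 rose, and 6 within each hybridization batch. Des, which encodes desmin, rose by 0.82 ± 0.13 and Cnn1, a contractile regulator gene, by 0.73 ± 0.10. The list mean ran from 0.32 to 0.64 in siTNF and from -0.59 to 0.40 in Control, so the groups overlapped. Of the enteric neuron and glia genes 9 of 14 measured members rose and 0 fell, and without the narrow arrays 8 rose and 0 fell (median 0.36). Vip, which encodes a relaxing neuropeptide, rose by 1.06 ± 0.20, and by 0.60 without the narrow arrays. In the endothelium list 11 of 14 measured members rose and 0 fell, with a median of 0.65, and without the narrow arrays 9 rose and 0 fell (median 0.46). Cdh5, the cadherin of vessel walls, rose by 0.93 ± 0.15 and the lymphatic vessel gene Lyve1 by 0.93 ± 0.15.

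Markers of neighbouring tissue differed between animals. Of the adipocyte genes 3 of 11 measured members rose and 0 fell, or 27.3% higher beside 11.4% of all genes. Without the narrow arrays 0 rose and 0 fell (median 0.29), when 10.4% of all genes rose and 13.1% fell. Leaving out siTNF replicate 6 gave 5 that rose. The adipocyte list mean ran from -0.43 to 1.13 in siTNF and from -0.53 to 0.57 in Control. Of 16 squamous epithelium genes, which the anal canal expresses, 0 passed, and their mean was 1.25 in siTNF replicate 3, -0.16 to -0.03 in the other siTNF animals and -0.26 to 0.38 in Control. Krt5, a basal keratin gene, had 6.96, 7.34 and 11.85 in siTNF, against 6.96, 7.10 and 7.39 in Control, and its highest siTNF value stood alone. The part of muscle, nerve, fat and squamous tissue in the other results was not tested.

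**Figure D4:**
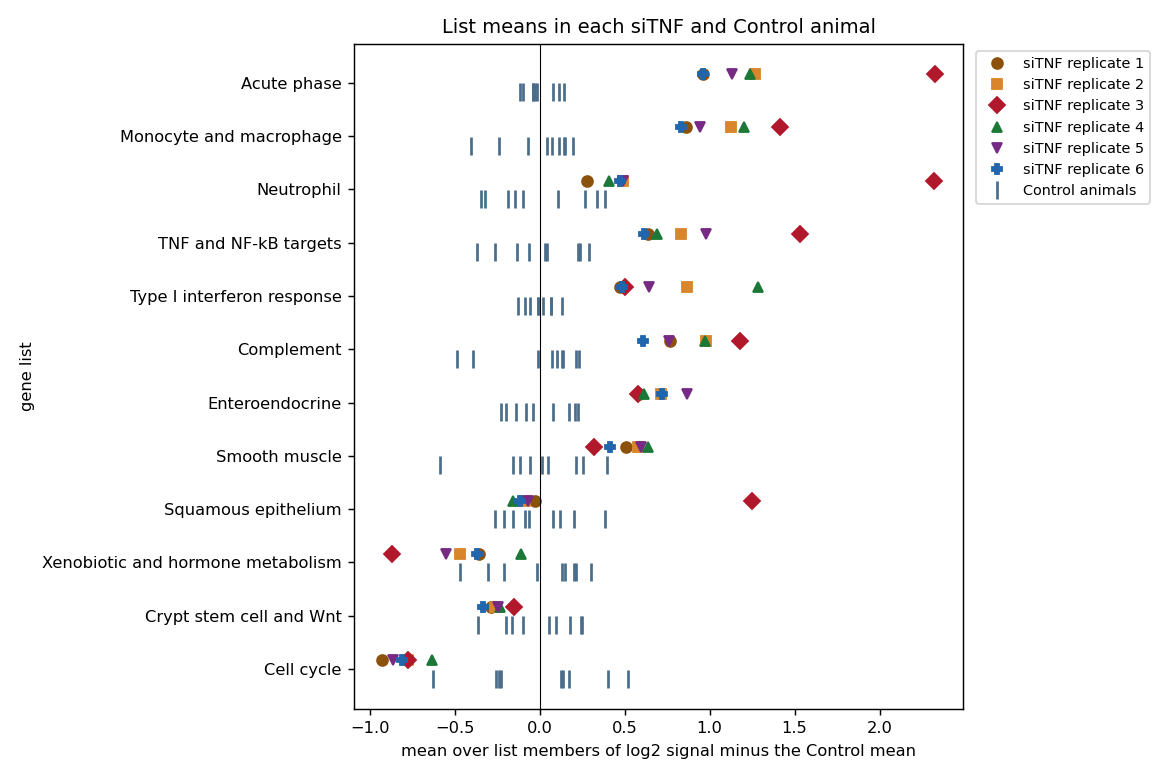
Mean over the members of 12 gene lists of log2 signal minus the Control mean, for each siTNF animal (coloured symbols, upper of each pair of rows) and each Control animal (vertical ticks). siTNF replicate 3 stands apart in the acute phase, neutrophil and squamous lists, at 2.33, 2.32 and 1.25, and siTNF replicate 4 is highest in the type I interferon list at 1.28.

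Repair and stress genes rose in part. In the wound healing list 8 of 17 measured members rose and 0 fell, and without the narrow arrays 6 rose and 0 fell (median 0.34). Plaur, the urokinase receptor gene, rose by 1.35 ± 0.20, and of the ligands of the epidermal growth factor receptor, Hbegf rose by 1.23 ± 0.26 and Ereg by 1.55 ± 0.43. The Ereg call was lost without the narrow arrays (1.31, limma adjusted p = 0.104), without siTNF replicate 3 (1.30, limma adjusted p = 0.0556) and without siTNF replicate 2. In the matrix and remodelling list 9 of 19 measured members rose and 0 fell, and without the narrow arrays 7 rose and 0 fell (median 0.48). Tnc, which encodes the wound matrix protein tenascin C, rose by 1.11 ± 0.19 with no overlap. Mmp3, a stromal protease gene, rose 2.83-fold and its inhibitor Timp1 by 1.11 ± 0.30. The Mmp3 call was lost without siTNF replicate 3 (1.12, limma adjusted p = 0.0651). The Timp1 call was lost without siTNF replicate 3 (0.93, limma adjusted p = 0.0503). The fibrillar collagen genes Col1a1 (0.17 ± 0.14) and Col3a1 (0.19 ± 0.15) did not pass.

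Of the hypoxia and glycolysis genes 10 of 14 measured members rose and 0 fell, with a median of 0.49, and without the narrow arrays 7 rose and 1 fell (median 0.23). Adm, which encodes the vasodilator adrenomedullin, rose by 1.72 ± 0.24, and the glycolysis genes Hk2 and Pfkfb3 by 1.41 ± 0.27 and 1.35 ± 0.23. Of the endoplasmic reticulum stress genes 6 of 16 measured members rose and 1 fell, with a median of 0.44, and without the narrow arrays 5 rose and 1 fell (median 0.21). Without siTNF replicate 3 9 rose and 0 fell. The chaperone Hspa5 rose by 0.59 ± 0.11, while Ern2, the stress sensor of goblet cells, fell by 0.47 ± 0.15. The Ern2 call was lost without siTNF replicate 3 (-0.35, limma adjusted p = 0.141) and in 7 of 15 fits that left out 1 array, that one included. In the prostaglandin and lipid mediator list 5 of 16 measured members rose and 1 fell, and without the narrow arrays 4 rose and 4 fell (median 0.12). Alox5ap, which feeds leukotriene synthesis, rose by 1.35 ± 0.19, and Ptgs2, the inducible cyclooxygenase, by 1.29 ± 0.43. The Ptgs2 call was lost without the narrow arrays (0.69, limma adjusted p = 0.355), without siTNF replicate 3 (0.86, limma adjusted p = 0.183) and in 8 of 15 fits that left out 1 array, that one included. Of the nitric oxide, arginine and polyamine genes 4 of 10 measured members rose and 0 fell, and without the narrow arrays 5 rose and 1 fell (median 0.25). Nos2, the inducible nitric oxide synthase, rose by 1.46 ± 0.33 and Gch1, which makes its cofactor, by 0.86 ± 0.12.

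The siTNF colons were then set against the other siRNA-dosed colons, to see whether any difference was tied to the unmodified TNF sequence. In limma's test 0 of 28853 probe sets (0%) passed against siTNF-OMe, siTNF-OMe-P or scrambled, with 494, 1002 and 311 at an unadjusted p under 0.05. Without the narrow arrays 0 passed as well, but 5758, 4978 and 4077 had an unadjusted p under 0.05, and against siTNF-OMe-P 2026 had one without siTNF replicate 3 and 363 without siTNF replicate 4. If no probe set differed, about 1 in 20 would have such a p. The counts with all arrays lay below that share, and those without the narrow arrays above it. Tnf averaged 9.10 ± 0.28 in siTNF, 8.79 ± 0.25 in siTNF-OMe, 8.69 ± 0.19 in siTNF-OMe-P, 8.89 ± 0.45 in scrambled and 7.95 ± 0.32 in Control (log2 signal, SD, n = 6, 6, 8, 7 and 9). The mean of siTNF was thus the highest of the 5 groups. Over scrambled the Tnf difference was 0.19 ± 0.16 log2 (SE, limma adjusted p = 1.00), over siTNF-OMe 0.31 ± 0.17 (limma adjusted p = 1.00) and over siTNF-OMe-P 0.41 ± 0.16 (limma adjusted p = 0.974). The 95% intervals, unadjusted for the number of probe sets, ran from -0.15 to 0.52 log2 over scrambled, from -0.03 to 0.66 over siTNF-OMe and from 0.089 to 0.739 over siTNF-OMe-P. A p that misses the threshold does not show that the siRNAs act alike.

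Other leading genes are given by their values. Clca4b differed by -0.07 ± 0.25 over siTNF-OMe, 0.21 ± 0.24 over siTNF-OMe-P and 0.22 ± 0.25 over scrambled (log2 ± SE, n = 6 against 6, 8 and 7). For Reg4 the same differences were 0.09 ± 0.15, 0.18 ± 0.14 and -0.10 ± 0.15, and for Zbp1 -0.20 ± 0.22, -0.06 ± 0.21 and -0.33 ± 0.21. Each of these is smaller than the difference of the same gene between siTNF and Control. The genes were picked by that difference in the same siTNF arrays, so the smaller size is no separate evidence. Set against Control, which the 4 comparisons share, Zbp1 was 1.57 ± 0.20 in siTNF, 1.77 in siTNF-OMe, 1.63 in siTNF-OMe-P and 1.90 in scrambled. Retnlb had larger but wide differences of 0.82 ± 0.43, 1.04 ± 0.40 and 0.60 ± 0.41 over siTNF-OMe, siTNF-OMe-P and scrambled, and none passed. Saa3 differed by -0.74 ± 0.52 over siTNF-OMe, and over scrambled Lcn2 differed by 0.54 ± 0.35 and Lrg1 by 0.52 ± 0.28, and none of these passed.

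The smallest p-values among the siRNA groups are given as values only. Over scrambled it was Sgk1, a kinase gene induced by glucocorticoids, with 8.06, 9.10 and 11.54 in siTNF, against 8.34, 8.41 and 8.97 in scrambled, a difference of 1.18 ± 0.31 (limma adjusted p = 1.00). The groups overlapped, and the siTNF spread was wide. Over siTNF-OMe it was Fabp5, with 10.95, 11.19 and 11.73 in siTNF, against 11.45, 12.12 and 12.24 in siTNF-OMe, a difference of -0.77 ± 0.18 (limma adjusted p = 1.00). Over siTNF-OMe-P it was Cstdc6, a cystatin domain gene, with 5.85, 6.44 and 6.55 in siTNF, against 6.51, 6.78 and 6.98 in siTNF-OMe-P, a difference of -0.42 ± 0.10 (limma adjusted p = 0.974).

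**Figure D5:**
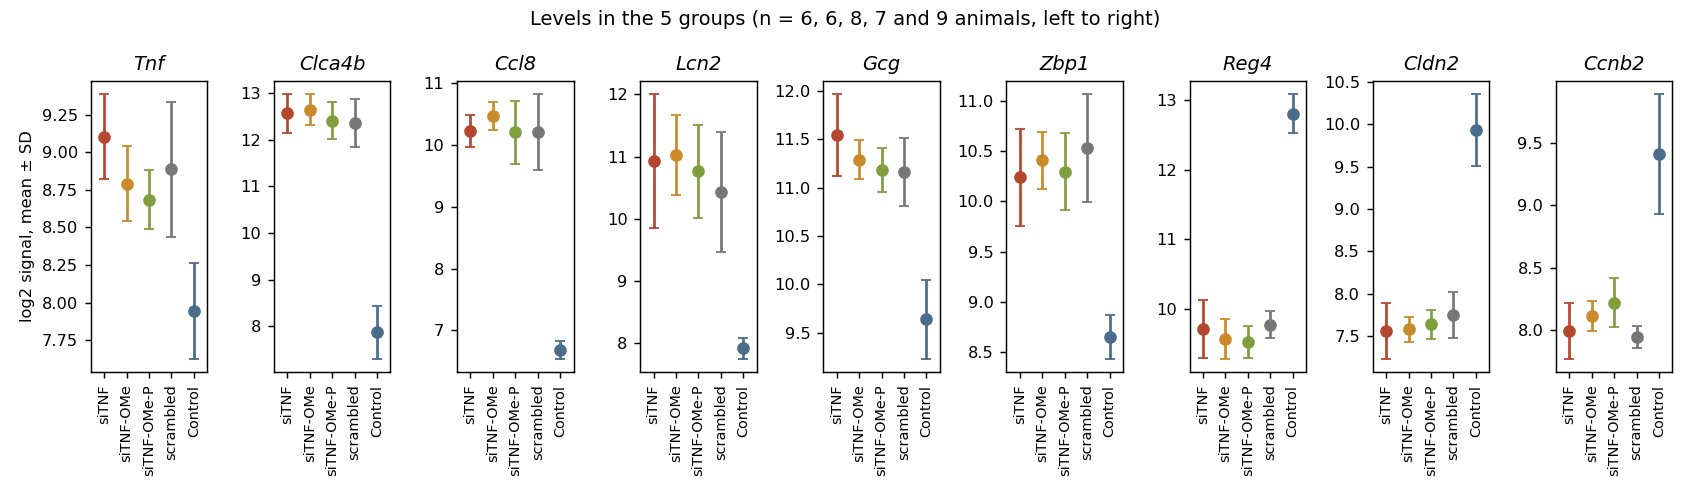
Mean log2 signal with SD of 9 genes in siTNF, siTNF-OMe, siTNF-OMe-P, scrambled and Control (n = 6, 6, 8, 7 and 9 animals, left to right). In each gene the Control mean lies outside the range of the 4 siRNA-dosed means, and for Tnf the siTNF mean of 9.10 is the highest and the Control mean of 7.95 the lowest. All but Tnf were named for their difference between siTNF and Control, so this pattern is no separate evidence.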

How the data were processed

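Affymetrix arrays of mouse colon, 1 per animal, were analysed from the deposited log2 probe set signals, which the authors made with Partek and RMA per the submitters' processing notes, with no versions given. Per the labels' protocols, RNA was isolated with a Qiagen kit, and 25 ng was amplified and biotin labelled. The labels set apart 3 amplification batches and 2 hybridization batches. The colon measures come from the labels, where each array has its own.

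Every probe set was tested with limma 3.58.1 in R 4.3.3 on all 36 arrays, with terms for group and for both kinds of batch (28 residual degrees of freedom), with a mean-variance trend, two-sided tests, Benjamini-Hochberg adjustment over 28853 probe sets and a threshold of 0.05. 0 probe sets passed for the batch terms. No value was filtered out or changed, and the files hold no background signal. Of the probe sets, 21789 carry 1 gene in the platform annotation, 1621 several and 5443 none, and a gene was represented by its probe set of highest mean (19938 genes). The 41 gene lists held 789 places, of which 717 were measured. Colon measures were compared by exact two-sided permutation. The fit and the permutation test were tested on simulated data. Other steps ran in Python 3.11.15 with pandas 2.3.3, NumPy 2.4.6, matplotlib 3.10.9 and SciPy 1.17.1.

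The groups compared, the gene lists, the limit of 1.7 on array SD and the naming rule were chosen with earlier results of these data known. Named are Tnf, the genes that passed with the 10 highest and 10 lowest differences, up to 3 risen and 3 fallen per list and 5 genes of smallest p between siRNA groups; any other list member could be named with its values. The alternatives were other batch terms, single batches, only the compared groups, narrow arrays left out, array SD as a covariate, a replicate block, other normalization, moderation or array weights, dim probe sets left out, 1 probe set per gene, a minimum of 1 log2, and each array left out.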

Additional observations from a re-analysis of the deposited data

Results flagged for a closer look

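Single animals were looked for in 268 sets of values, each the values of 1 named gene or colon measure within siTNF (6 animals) or within Control (9 animals). An animal was singled out where its gap to the nearest other animal was a large part of the whole range of its group. This happened in 35 of the 268 sets. Chance alone singles out about 1 in 20 such sets. In 16 of the 35 the animal was siTNF replicate 3.

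siTNF replicate 3 was far above the other siTNF animals in genes of neutrophils, chemokines and early response. Its log2 signal, with the nearest siTNF animal after it, was 13.08 against 10.86 for Lcn2, 12.27 against 8.96 for S100a8, 12.47 against 9.54 for S100a9, 11.61 against 7.58 for Cxcl2 and 11.17 against 9.58 for Ier3. It was also highest in Serpina3n (12.79 against 11.81), Mmp3 (12.18 against 9.99), Alox5ap (11.55 against 10.37), Vip (10.57 against 10.05) and Prdm1 (8.68 against 8.09). The same animal was lowest in epithelial genes: Aqp8 (9.82 against 10.82), Kcne3 (8.63 against 10.07), Creb3l1 (9.08 against 9.87), Sdf2l1 (9.42 against 10.34), Nkd1 (10.03 against 10.33) and Myb (7.87 against 8.45). This animal had a narrow array and the highest MPO activity of its group, 0.703 U per mg. The part of either in these values was not tested.

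siTNF replicate 4 was highest in Tap1 (10.70, nearest 10.02), Guca2b (11.30, nearest 10.15) and Hpgds (9.02, nearest 8.36), and lowest in Cr2 (6.08, nearest 6.49) and Alox15 (7.21, nearest 7.69). siTNF replicate 1 was lowest in Clca4b (11.78, nearest 12.52) and Hbegf (9.91, nearest 10.84) and highest in Kcnn4 (9.02, nearest 8.48). siTNF replicate 5 was highest in Duoxa2 (12.19, nearest 11.45) and lowest in S100g (7.59, nearest 7.89).

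Among Control animals, replicate 4, a narrow array, was highest in Tnf (8.67, nearest 8.10) and lowest in Wfdc17 (7.87, nearest 8.62), Clca4a (9.50, nearest 10.32) and Cd24a (12.08, nearest 12.26). Control replicate 6 had the heaviest colon, at 200 mg with the nearest at 172 mg, and the highest weight to length ratio, 2.47 with the nearest at 2.21 mg per mm. Control replicate 1 was highest in the B cell genes Cr2 (7.82, nearest 7.12) and Cd79a (8.27, nearest 7.82), and Control replicate 2 in Iigp1 (9.68, nearest 8.50).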

How the results depend on the processing

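The count of 3982 probe sets, 2624 higher and 1358 lower in siTNF, moved by over 1.5 times in 9 settings. It was 1321 with only the siTNF and Control arrays in the fit, 788 and 1584 within hybridization batches 1 and 2, 1956 and 110 within amplification batches 1 and 3, and 373 with a minimum of 1 log2. It was 6021 (2487 higher and 3534 lower) without the narrow arrays, 7594 (3817 and 3777) with array SD as a covariate and 7924 (3166 and 4758) with array weights. These settings turned or evened the split, which also turned within hybridization batch 1 (333 higher and 455 lower) and amplification batch 1 (621 and 1335). Median centring gave 3275 (2401 and 874). Of the 3982, 2936 kept their call without the narrow arrays, and all 3982 kept their direction there. Leaving out 1 array at a time gave 3093 to 4460, lowest without siTNF replicate 5. The replicate numbers do not pair the animals: the correlation of deviations for animals of the same number in siTNF and Control was 0.234, 0.0974, -0.681, -0.658, -0.354 and 0.676. With the replicate block in place of the batch terms 3461 probe sets passed. Between siRNA groups each count of 0 stayed 0 with any 1 array left out. It became 1 for siTNF over siTNF-OMe with array weights and 4 for siTNF over siTNF-OMe-P with quantile normalization. Of 130 named genes, 112 kept their call without the narrow arrays, 110 with any 1 of 15 arrays left out, 94 with only the siTNF and Control arrays, 66 and 93 within hybridization batches 1 and 2, and 67, 104 and 28 within amplification batches 1, 2 and 3. Named genes that turned direction were Aqp4 within amplification batch 2 (-0.15 log2, against 0.78 over all arrays) and Plin4 within amplification batch 3 (-0.14, against 0.47), where a group held 2 to 4 arrays. The cause was not tested. Length, MPO activity and the weight to length ratio kept their direction and passed in the alternatives run. Colon weight passed in none, and its difference of -0.944 mg had no stable sign: it was 6.83 and -8.0 mg within hybridization batches 1 and 2, and ran from -6.71 mg without siTNF replicate 3 to 3.17 mg without Control replicate 6. Of the 82 counts of list members, 41 lists in 2 directions, 67 stayed within 1.5 times without the narrow arrays, 58 with only the siTNF and Control arrays, and 43 and 63 within hybridization batches 1 and 2. Depth is not a measure for arrays, and signal over background was not used here.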
